A study of Mus musculus with 18 samples.

Results

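Complex I of the mitochondrial respiratory chain was followed in mouse ileum through the genes that carry its name, those whose gene name on the array starts with Nduf. The array holds 45 such names. A name was kept when a probe of it exceeded background clearly on 5 or more of the 6 arrays in some group, which left 44 of the 21542 gene names tested. They comprised 37 subunit genes and 7 assembly factor genes (Ndufaf), each represented by its brightest probe. All 44 were above background on all 18 arrays, so that the filter selected on no group. The name that failed was Ndufa4l2, whose 2 probes were above background on none of the arrays of any group.

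The samples were cells shaken off the ileum of mice in a chelating buffer, and the RNA of all cells of a sample was hybridised together. Floxed mice, labelled iPGC1afl/fl, were fed either chow (n = 6) or a diet labelled HFD (n = 6) that provided 42% of its energy as fat with 0.2% cholesterol, and mice labelled iPGC1a-/- were fed the HFD (n = 6). Feeding started at 8 weeks of age and lasted 8 weeks, and tissue was taken at ZT 3. All mice carried floxed alleles of Ppargc1a, the gene of the coactivator Pgc1a, and in iPGC1a-/- mice a Cre under the Villin promoter removes exons in the intestinal epithelium only, which leaves the gene intact in blood and connective tissue cells. Genotypes could be compared on HFD only and diets in floxed mice only, since chow-fed iPGC1a-/- mice were not analysed here. The labels number the samples of a group without naming the mouse, and p-values measure the spread between these samples.

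Complex I is the entry point of electrons from NADH into the respiratory chain. A peripheral arm holds an NADH-binding N module and a ubiquinone-binding Q module, a membrane arm pumps protons, and assembly factors join the pieces without remaining in the finished enzyme. Most subunits are encoded in the nucleus, while the proton-pumping core of the membrane arm is encoded by mitochondrial DNA. Pgc1a is known as a coactivator of transcription factors that act on such nuclear genes, and the absorptive cells of the ileum are rich in mitochondria.

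The signal of Ppargc1a was examined as a check of the genotype labels. It ranged from 11.36 to 12.01 with a median of 11.63 (log2 signal) on the arrays labelled iPGC1a-/- and from 11.26 to 11.44 with a median of 11.40 on those of floxed mice on HFD. It was thus not lower under the iPGC1a-/- label (log2 difference 0.30 ± 0.16 SE, limma adjusted p = 0.569), and where the probe lies relative to the deleted exons was not examined. Genotype is therefore given as labelled. The 18 arrays lay on 3 slides, each with 2 arrays of every group, and 56.3% to 62.3% of the spots on an array were well above background. Epithelial marker genes (Epcam, Vil1, Cdh1, Krt8, Krt20) had list means of 15.11 to 15.55 on all arrays, and none of the 5 passed the test by diet or by genotype. In iPGC1a-/- HFD against floxed chow 1 of the 5 rose, against 16.8% of all gene names. T cell and B or plasma cell markers were present and differed between the diets, as described below.

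The mean of the 37 subunit genes was lower on every array labelled iPGC1a-/- than on any array of floxed mice on HFD. The mean log2 signal over the subunits ranged from 13.56 to 13.70 on chow (13.64 ± 0.06, SD, n = 6), from 13.62 to 13.85 in floxed mice on HFD (13.69 ± 0.08) and from 13.32 to 13.61 in mice labelled iPGC1a-/- on HFD (13.50 ± 0.10). The mean over all gene names tested lay between 8.56 and 8.61 on all 18 arrays. Replicate 6 of floxed HFD stood apart with the highest signal of its group in 32 of 37 subunits, and replicate 6 of iPGC1a-/- HFD with the lowest in 29 of 37. The subunit medians by diet and by genotype are also given without replicate 6 of floxed HFD below, and by genotype without both arrays. Other values include both arrays unless stated.

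**Figure D1:**
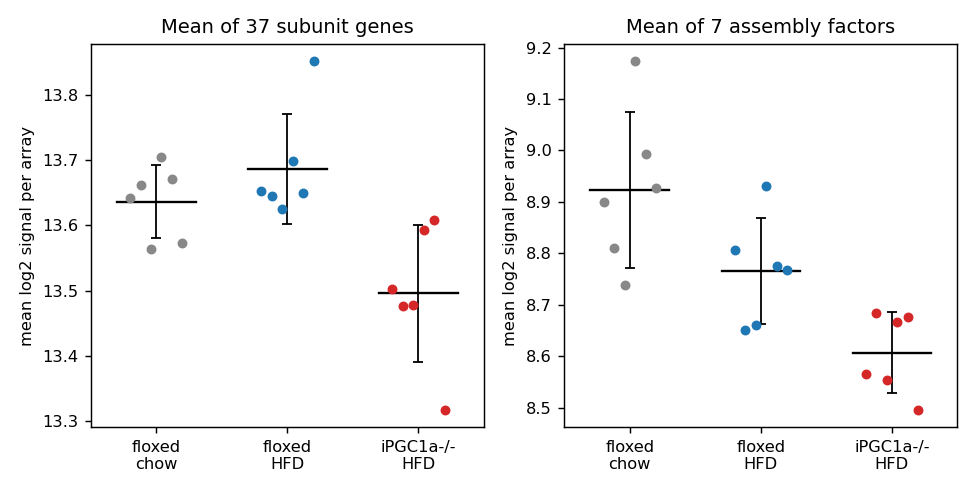
Mean log2 signal of the 37 subunit genes (left) and the 7 assembly factors (right), 1 point per array in 3 groups of 6, with the group mean (line) and SD (bar). The subunit means of the iPGC1a-/- arrays (13.32 to 13.61) lie below all those of floxed mice on HFD (13.62 to 13.85), while the group means of the assembly factors go down from chow (8.92) over floxed HFD (8.77) to iPGC1a-/- HFD (8.61).

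The question of the diet comparison is what HFD feeding did in floxed mice. Of the 37 subunits, 2 rose (Ndufb4 and Ndufb3) and 0 fell at an adjusted p of 0.05 or lower (limma, adjusted over all 32726 probes), against 10.3% of all gene names that rose and 14.3% that fell. The count depended on the scaling, since 9 rose when the processed signal and 7 when the median signal of each array was scaled to its 75th percentile. The median log2 difference of the subunits was 0.05, with 22 higher and 15 lower. It was 0.01 without replicate 6 of floxed HFD, with 21 higher and 16 lower, and 0.16 or 0.14 under these scalings, with 36 or 35 of 37 higher. No member passed with a fold above 1.5, which 8.44% of all gene names did. The signal did not overlap between the diets in 3 of 37 subunits (Ndufa1, Ndufa2 and Ndufb4, all higher on HFD), a share of 8.11% against 10.4% of all gene names. Of the 7 assembly factors, 1 fell (Ndufaf7) and 6 had lower means, with a median of -0.21 against 0.00 for all genes.

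In the same comparison, cell type markers moved. All 5 T cell markers fell, from list means of 9.81 to 11.41 on chow to 8.88 to 9.54 on HFD, and all 5 B and plasma cell markers fell, from 7.04 to 8.58 down to 5.20 to 7.03. All 5 goblet cell markers fell as well, from 15.50 to 16.00 on chow to 14.38 to 15.60 on HFD, and 2 of 5 absorptive enterocyte markers rose. Of the crypt and proliferation markers 2 of 5 fell, and of the macrophage markers 2 of 4. In each of the Paneth, enteroendocrine, tuft and endothelium lists 1 marker fell. Of all gene names 14.3% fell and 10.3% rose. The part of these markers in the members' values was not tested. In bulk RNA, fewer cells of a type and less RNA per cell cannot be told apart.

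The question of the genotype comparison is how mice labelled iPGC1a-/- differ from floxed mice when both eat HFD. All 37 subunits had a lower mean under the iPGC1a-/- label, with a median log2 difference of -0.19 against 0.01 for all genes tested, but 0 of 37 passed the limma test. At an unadjusted p of 0.05 or lower there were 21 of 37 (56.8%), against 9.33% of all gene names. Among all gene names 0.065% rose and 0.149% fell, and 0.135% passed with a fold above 1.5. The signal did not overlap between the groups in 10 of 37 subunits, all lower in iPGC1a-/- (27.0%, against 0.966% of all gene names). The 95% confidence interval stayed within a fold of 1.5 in 36 of 37 subunits, Ndufc1 being the exception, and in 19524 of all 21542 gene names. For scale, 3475 other genes with signals between the dimmest and the brightest subunit were lower in 50.1% of cases, and 1.67% of them did not overlap.

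Within each slide the median had the same direction. The median subunit difference by genotype was -0.08 on slide 1, -0.21 on slide 2 and -0.27 on slide 3, with 32, 33 and 37 of 37 subunits lower. Replicate 6 of iPGC1a-/- HFD lay on slide 2 and replicate 6 of floxed HFD on slide 3. Slide 1, with the smallest median, held neither of these arrays. Without replicate 6 of floxed HFD the median difference was -0.15 and 36 of 37 subunits were lower. Without replicate 6 of both HFD groups it was -0.12, with 36 of 37 lower. No subunit passed in either case. T cell markers had higher means in iPGC1a-/- (5 of 5, median 0.23, list means of 9.07 to 9.79), as did B and plasma cell markers (5 of 5, median 0.33, 5.81 to 6.78), with 0 of 10 passing, and tuft cell markers had lower means (4 of 4, median -0.41, 0 passed). Means were also higher for red blood cell markers (3 of 3, median 0.60, list means of 7.95 to 9.71 in floxed mice on HFD and 8.64 to 11.49 in iPGC1a-/- mice) and goblet cell markers (5 of 5, median 0.16), and lower for Paneth cell (5 of 5, median -0.04) and fibroblast markers (3 of 3, median -0.10), with 0 passing in any. The part of these markers in the subunits' values was not tested.

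**Figure D2:**
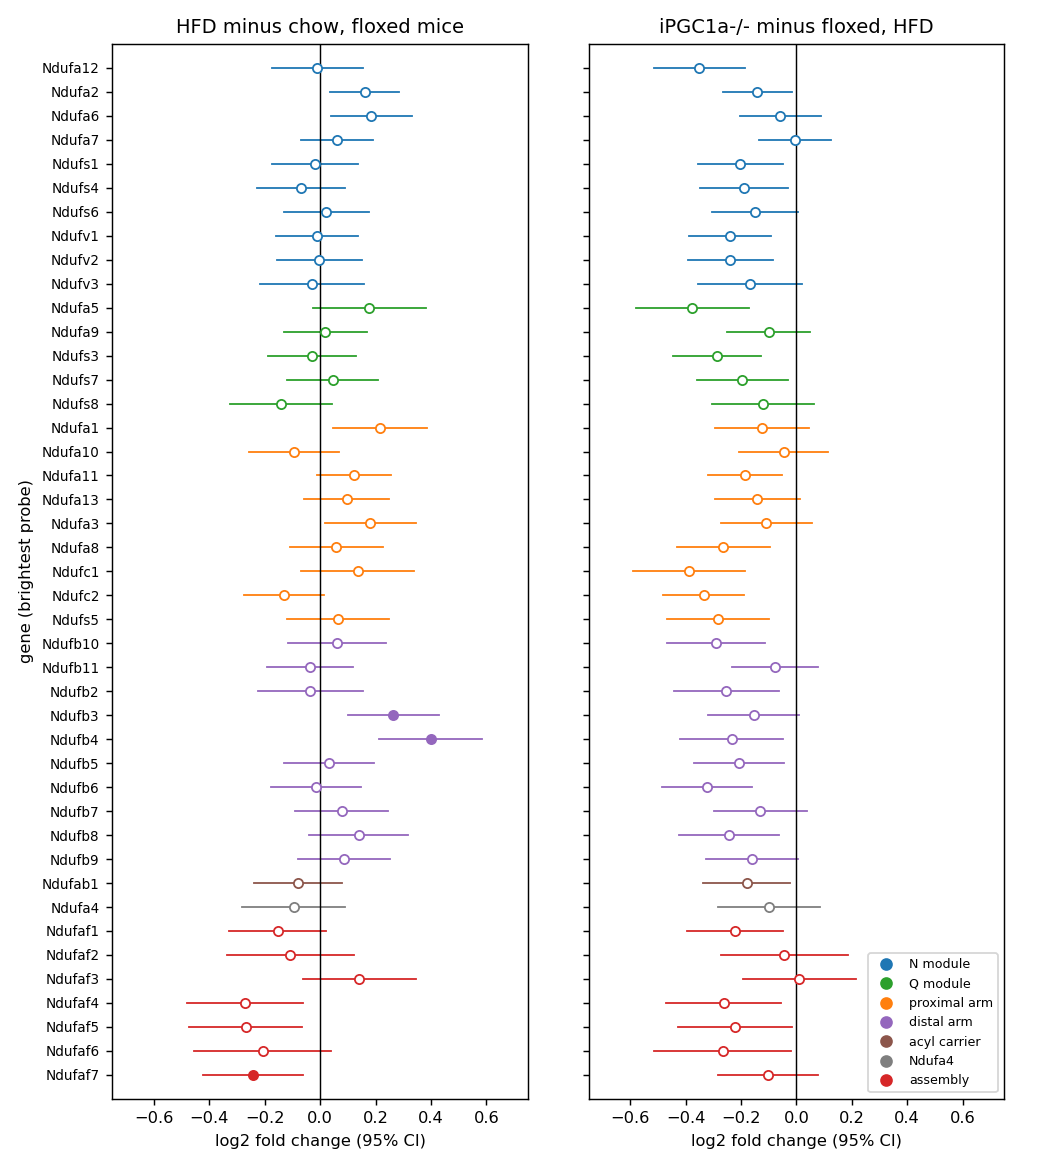
Log2 fold change with its 95% confidence interval for 43 of the 44 genes, coloured by module, for HFD against chow in floxed mice (left) and iPGC1a-/- against floxed mice on HFD (right). Filled points passed the limma test (adjusted p of 0.05 or lower). On the left 21 of the 36 subunits shown lie above 0 and 6 of 7 assembly factors below it, and on the right all 36 lie below 0 with no filled point.

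The 3 subunits with the lowest p in the genotype comparison were Ndufc2, Ndufa12 and Ndufb6. Ndufc2, an accessory subunit of the proximal membrane arm (probe at chr7:104555383-104555442 of build mm9, plus strand), read 13.29, 13.33 and 13.39 (lowest, median and highest log2 signal) in floxed mice on HFD and 12.79, 13.02 and 13.13 in iPGC1a-/- mice. All iPGC1a-/- arrays lay below all floxed arrays, on chow as well (13.32 to 13.63). The log2 difference on HFD was -0.34 ± 0.07 (SE), a 1.26-fold lower signal with a limma adjusted p of 0.052. Under 7 of 14 alternatives its adjusted p was 0.05 or lower, with a range of 0.017 to 0.234 over all 14.

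Ndufa12, an accessory subunit between the N and Q modules (probe at chr10:93683562-93683621, plus strand), read 13.58, 13.70 and 13.87 in floxed mice on HFD against 13.09, 13.35 and 13.55 in iPGC1a-/- mice. Here too the groups did not overlap, and the log2 difference was -0.35 ± 0.08 (limma adjusted p = 0.091). Ndufb6 of the distal membrane arm (probe at chr4:40217720-40217779, minus strand) read 11.81, 11.83 and 12.07 against 11.31, 11.58 and 11.73, again without overlap (-0.32 ± 0.08, adjusted p = 0.134). On chow the floxed mice had nearly the same median signal as on HFD for both, 13.68 for Ndufa12 and 11.89 for Ndufb6. The other subunits without overlap, lower in iPGC1a-/- by 0.14 to 0.39 on the log2 scale, were Ndufa2, Ndufa5, Ndufa8, Ndufb10, Ndufc1, Ndufs5 and Ndufv1. They come from the N module, the Q module and both parts of the membrane arm.

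**Figure D3:**
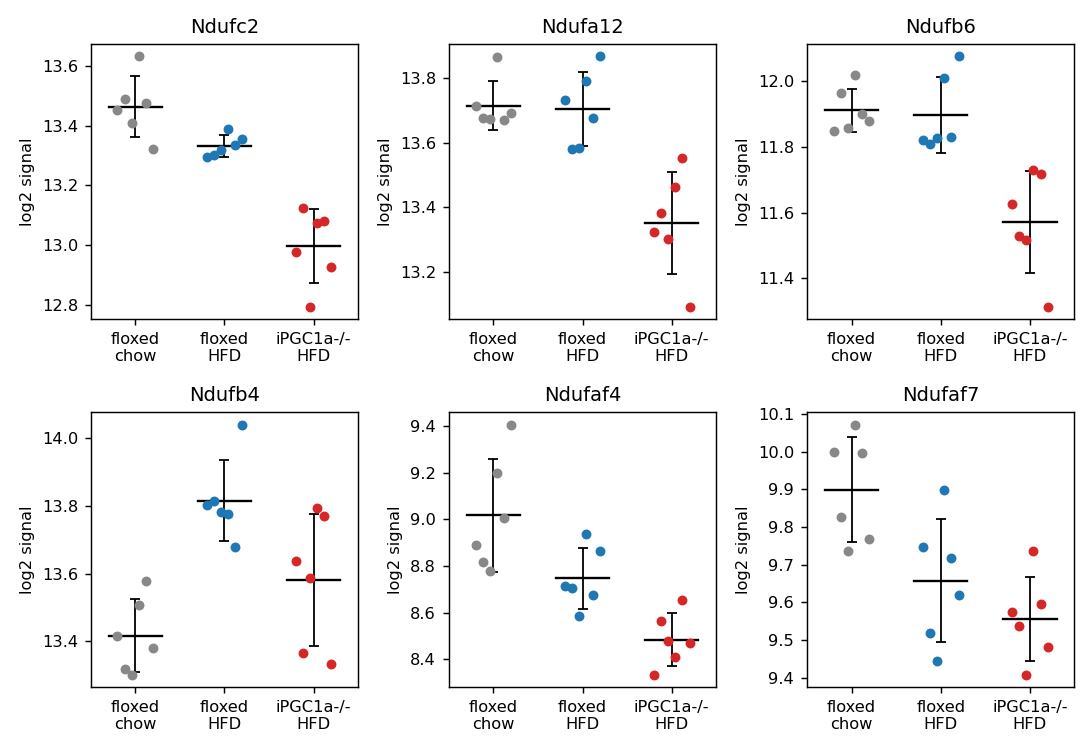
Log2 signal per array (6 per group) with group mean and SD for the 3 subunits with the lowest p by genotype (top) and for Ndufb4, Ndufaf4 and Ndufaf7 (bottom). Ndufc2, Ndufa12 and Ndufb6 show the 6 iPGC1a-/- arrays below all floxed arrays, whereas Ndufb4 is lowest on chow and Ndufaf4 steps down over the 3 groups.

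Promoter sequences of RefSeq (build GRCm38.p6, 250 bases before to 50 after the start) were at hand for 39 of the 44 genes and were searched on both strands for the NRF1 core GCGCATGC, the ERRalpha site TCAAGGTCA and the GABPA site CCGGAAGT, letters bound by factors known to act on respiratory genes. The NRF1 core was found in 3 of 33 subunit promoters and 2 of 6 assembly factor promoters, against 3.05% of 27025 genes. The GABPA site was in 1 of 33 subunits (4.31% of all genes) and the ERRalpha site in 0 of 39 (0.466%). In Ndufa11, Ndufaf4 and Ndufaf5 an NRF1 match on each strand overlapped the other. Shown 5′ to 3′ with matches in capitals are the promoters of the assembly factors Ndufaf4 and Ndufaf5, which carry the core and fell in iPGC1a-/- HFD against floxed chow, of Ndufa8 and Ndufs3, which hold matches among the subunits, and of Ndufc2, which had the lowest p by genotype and holds no match.
Ndufaf4 (chr4:24897833-24898132, plus strand): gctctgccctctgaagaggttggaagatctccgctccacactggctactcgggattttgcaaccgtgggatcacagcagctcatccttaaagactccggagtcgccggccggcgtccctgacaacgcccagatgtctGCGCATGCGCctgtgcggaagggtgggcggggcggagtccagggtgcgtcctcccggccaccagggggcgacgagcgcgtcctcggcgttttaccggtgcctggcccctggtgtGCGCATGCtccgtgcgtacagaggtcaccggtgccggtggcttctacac
Ndufaf5 (chr2:140170396-140170695, plus strand): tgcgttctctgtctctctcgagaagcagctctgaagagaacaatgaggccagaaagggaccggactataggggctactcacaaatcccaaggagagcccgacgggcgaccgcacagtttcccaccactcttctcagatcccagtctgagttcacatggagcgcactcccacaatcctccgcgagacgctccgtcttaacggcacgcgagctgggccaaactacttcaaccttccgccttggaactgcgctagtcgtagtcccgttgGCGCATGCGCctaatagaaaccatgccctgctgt
Ndufa8 (chr2:36049289-36049588, minus strand): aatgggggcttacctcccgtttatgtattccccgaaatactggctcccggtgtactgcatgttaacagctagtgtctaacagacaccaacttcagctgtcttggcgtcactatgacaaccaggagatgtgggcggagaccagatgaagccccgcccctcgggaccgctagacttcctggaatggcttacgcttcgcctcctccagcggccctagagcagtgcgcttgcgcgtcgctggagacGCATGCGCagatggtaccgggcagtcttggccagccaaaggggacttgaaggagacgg
Ndufs3 (chr2:90904672-90904971, minus strand): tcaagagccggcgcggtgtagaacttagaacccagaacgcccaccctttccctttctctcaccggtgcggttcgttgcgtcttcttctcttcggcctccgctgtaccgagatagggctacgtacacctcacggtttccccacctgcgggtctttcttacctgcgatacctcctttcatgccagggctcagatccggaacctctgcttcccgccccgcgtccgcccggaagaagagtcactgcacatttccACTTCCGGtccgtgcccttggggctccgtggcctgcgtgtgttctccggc
Ndufc2 (chr7:97399753-97400052, plus strand): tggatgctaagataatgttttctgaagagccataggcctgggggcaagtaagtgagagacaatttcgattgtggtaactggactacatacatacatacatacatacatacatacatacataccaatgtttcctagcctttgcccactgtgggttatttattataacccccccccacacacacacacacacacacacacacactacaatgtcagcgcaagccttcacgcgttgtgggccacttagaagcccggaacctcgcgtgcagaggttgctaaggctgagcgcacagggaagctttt
The remaining matches were in Ndufa6 and Ndufa11, and a match describes letters, not a bound site. Ndufaf1 and Ndufaf7 also fell in iPGC1a-/- HFD against floxed chow but hold no match, and Ndufaf6 fell and had no promoter entry. Among subunits with the NRF1 core, Ndufa6 (0.13), Ndufa11 (-0.06) and Ndufa8 (-0.21) did not pass in that comparison. A link between matches and changes was not tested.

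The 7 nuclear-encoded core subunits carry the flavin, the iron-sulphur clusters and the ubiquinone pocket. All 7 were lower in iPGC1a-/- mice on HFD (median -0.20), with 0 passing, and by diet 0 passed as well, at a median of -0.01. Ndufv1, which binds NADH and the flavin, read 14.19, 14.29 and 14.39 in floxed mice on HFD and 13.85, 14.05 and 14.19 in iPGC1a-/- mice. Its groups did not overlap, by less than the digits given, at a log2 difference of -0.24 ± 0.07 (limma adjusted p = 0.282). Ndufv2 and Ndufs1, which hold iron-sulphur clusters of the N module, differed by -0.24 ± 0.07 and -0.20 ± 0.07, with overlapping groups. At a dimmer second probe the difference was smaller for Ndufv1 (-0.06) and Ndufv2 (-0.08) and larger for Ndufs1 (-0.31), with 0 passing.

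In the Q module, Ndufs3, a structural core subunit, differed most among the core genes by genotype, from 13.61, 13.70 and 13.83 to 13.16, 13.41 and 13.63, with 1 iPGC1a-/- array above the lowest floxed arrays (-0.29 ± 0.08, limma adjusted p = 0.204). A dimmer second probe of Ndufs3 differed by only -0.03. Ndufs7, which lines the ubiquinone pocket and holds the last cluster of the chain, differed by -0.20 ± 0.08. Ndufs8, with further clusters, differed by -0.12 ± 0.09.

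Differences between the modules were not tested. The median log2 difference by genotype was -0.18 over the 10 N module genes, -0.16 over the 6 Q module genes, -0.19 over the 9 genes of the proximal and -0.22 over the 10 of the distal membrane arm. In each module all members were lower and 0 passed. By diet the medians were -0.01, 0.03, 0.10 and 0.07 in the same order. Ndufab1, an acyl carrier protein found in both arms, differed by -0.18 by genotype. Ndufa4, named for complex I but known as a subunit of cytochrome c oxidase, differed by -0.10 ± 0.09. Ndufa7 of the N module differed least, its interval running from -0.13 to 0.13.

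Both subunits that rose on HFD belong to the distal membrane arm. Ndufb4 (probe at chr16:37647711-37647770 of mm9, minus strand) read 13.30, 13.40 and 13.58 on chow and 13.68, 13.79 and 14.04 on HFD, so that all HFD arrays lay above all chow arrays. The log2 difference was 0.40 ± 0.09, a 1.32-fold rise with a limma adjusted p of 0.00283, and it passed with each of the 18 arrays left out. In iPGC1a-/- mice on HFD it spanned 13.33 to 13.79, which overlapped part of the range of each floxed group. RefSeq lists the near namesakes Ndufb4b and Ndufb4c, and pseudogenes of Ndufa12, Ndufab1 and Ndufs5, whose transcripts a probe may not separate. Ndufb3 read 12.55, 12.71 and 12.90 on chow and 12.88, 12.91 and 13.15 on HFD, which overlapped slightly (0.26 ± 0.08, adjusted p = 0.0198), and the call was lost with array weights (adjusted p = 0.056). Ndufa2, with the third lowest p by diet, was higher on HFD on all 6 arrays than on any chow array, by 0.16 ± 0.06, and did not pass (adjusted p = 0.057), although it did under 7 of 14 alternatives. On iPGC1a-/- arrays Ndufa2 lay below all floxed HFD arrays, at 14.43 to 14.61 against 14.66 to 14.76.

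When iPGC1a-/- mice on HFD were set against floxed mice on chow, diet and genotype changed together and cannot be told apart, and the arrays are those of the comparisons above. Of the 37 subunits 13 fell and 0 rose (limma), against 19.9% of all gene names that fell and 16.8% that rose. Scaled to the 75th percentile, 4 fell and 2 rose with the processed signal, and 5 fell and 1 rose with the median signal. The 13 were Ndufs1, Ndufs3, Ndufs8, Ndufv1 and Ndufv2 of the core and Ndufa12, Ndufs4, Ndufab1, Ndufb2, Ndufb6, Ndufb10, Ndufc1 and Ndufc2. The signal did not overlap in 5 subunits, all lower (13.5%, against 16.2% of all gene names). The largest difference among subunits was that of Ndufc2 at -0.47 ± 0.07 (adjusted p = 4.86e-05). Cell type markers differed in this comparison too. All 5 T cell and all 5 B and plasma cell markers fell, as did 4 of 5 goblet cell and 3 of 5 crypt and proliferation markers. Of the absorptive enterocyte markers 3 of 5 rose. The part of these markers in the members' values was not tested.

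Of the 7 assembly factors, 5 fell in iPGC1a-/- HFD against floxed chow (Ndufaf1, Ndufaf4, Ndufaf5, Ndufaf6 and Ndufaf7), with a median over all 7 of -0.37, and 4 of these did not overlap. Of all gene names 19.9% fell and 16.2% did not overlap in this comparison. Each of the 5 passed with any 1 array left out and under 14 alternatives, but 0 reached a fold of 1.5. Of the 4 other assembly factor probes past the filter, which belong to Ndufaf5, Ndufaf6 and Ndufaf7, 1 passed in this comparison. By diet the median over all 7 genes was -0.21 and by genotype -0.22. By genotype 0 of 7 passed and 4 of 7 had an unadjusted p of 0.05 or lower (9.33% of all gene names). Within slides the medians were -0.14, -0.23 and -0.19 by diet and -0.07, -0.21 and -0.27 by genotype.

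Ndufaf4, which acts with Ndufaf3 in building the Q module, read 8.78, 8.95 and 9.41 on chow, 8.58, 8.71 and 8.94 in floxed mice on HFD and 8.33, 8.47 and 8.65 in iPGC1a-/- mice. Only neighbouring groups overlapped. The log2 difference was -0.27 ± 0.10 by diet (limma adjusted p = 0.058), -0.26 ± 0.10 by genotype (adjusted p = 0.425) and -0.53 ± 0.10 from chow to iPGC1a-/- HFD (adjusted p = 0.000435). Ndufaf3 was the exception among the 7, at 8.37 to 8.81 on chow, 8.67 to 8.99 in floxed mice on HFD and 8.52 to 9.05 in iPGC1a-/- mice. Its log2 differences were 0.14 ± 0.10 by diet and 0.01 ± 0.10 by genotype, and neither passed.

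Ndufaf7, an arginine methyltransferase, was the assembly factor that passed by diet. It read 9.74, 9.91 and 10.07 on chow and 9.45, 9.67 and 9.90 on HFD, with overlap (-0.24 ± 0.09, limma adjusted p = 0.049). The call was lost in 10 of the 18 analyses that left out 1 array, floxed HFD replicate 6 among them (adjusted p = 0.097), and under 11 of 14 other alternatives. Ndufaf5, which hydroxylates an arginine of Ndufs7, read 7.93, 8.22 and 8.62 on chow, 7.89, 7.97 and 8.15 in floxed mice on HFD and 7.65, 7.72 and 8.09 in iPGC1a-/- mice. It fell from chow to iPGC1a-/- HFD by 0.49 on the log2 scale (adjusted p = 0.000745) and overlapped between these groups.

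Ndufaf6, needed for early steps of the membrane arm, fell between the same groups by 0.47 (limma adjusted p = 0.0043), from 7.84 to 8.53 on chow to 7.18 to 7.80. Ndufaf1, of the complex that builds the membrane arm, fell by 0.37 (adjusted p = 0.00184), from 9.43 to 9.74 down to 9.01 to 9.29. For Ndufaf2, a relative of Ndufa12 that holds its place during assembly, the interval ran from -0.34 to 0.12 by diet and from -0.27 to 0.19 by genotype.

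Other probes of the same genes were less uniform. Of 54 subunit probes past the filter 50 were lower in iPGC1a-/- mice on HFD, and of the 17 that were not the brightest of their gene 13 were lower. Among the 4 higher ones were probes of Ndufa10, Ndufa13 (a probe the array describes as Yjefn3) and Ndufv3, and 0 of the 54 passed. Of the 4 other assembly factor probes 3 were lower. By diet, a dimmer probe of Ndufab1 rose (0.29, limma adjusted p = 0.042) where the brightest stood at -0.08, and a dimmer probe of Ndufaf6 fell (-0.26, adjusted p = 0.047). From chow to iPGC1a-/- HFD the second probe differed by 0.04 for Ndufaf5 and by -0.19 for Ndufaf7, and neither passed. The Ndufaf6 probe that fell by diet fell here too (-0.48, limma adjusted p = 0.000602). Another dimmer Ndufaf6 probe did not pass (-0.24, limma adjusted p = 0.074).

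Subunits varied together among samples of the same group. After removing group means, the correlation of a subunit with the mean of the other 36 over the 18 arrays had a median of 0.74. It ran from -0.12 for Ndufa11 to 0.92 for Ndufb6. Taken gene by gene, the median correlation of the typical subunit was 0.58 with the other subunits and 0.03 with all genes. These values share arrays and normalization and are given as a description. The 37 differences in a comparison are therefore not 37 separate observations. Ndufa6 (-0.04), Ndufa10 (0.23) and Ndufa4 (0.32) also stood outside the common pattern. The assembly factors followed the subunits less, with a median of 0.31.

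Genes of complex I without the Nduf name were read from a list of 19, of which 18 were measured. The 7 subunits encoded by mitochondrial DNA, listed on the array as ND1 to ND6 and ND4L, were all higher on HFD than on chow in floxed mice (median 0.18), and 2 rose, ND2 (0.31 ± 0.11, limma adjusted p = 0.041) and ND4L (0.31 ± 0.10, adjusted p = 0.031), against 10.3% of all gene names that rose. All 7 were lower in iPGC1a-/- mice on HFD (median -0.15) and 0 passed. Of 11 further assembly factors, 4 fell by diet: Foxred1 (-0.45), Ecsit (-0.33), Tmem186 (-0.32) and Tmem70 (-0.32). Timmdc1 rose (0.47). Of all gene names 14.3% fell and 10.3% rose by diet. By genotype 0 of 11 passed, and their median of 0.02 was near that of all genes.

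Other respiratory complexes had lower means by genotype as well. Complex III (9 of 9 lower, median -0.15), complex IV (9 of 9, -0.20) and ATP synthase (15 of 15, -0.20) were lower in all measured members. The complex II list, which unlike the others holds assembly factors (Sdhaf) beside subunits, was lower in 6 of 8 (-0.17). In each of these lists 0 passed. The differences between the complexes were not tested. By diet their medians lay between 0.02 and 0.06, with 1 rise (ATP synthase) and 1 fall (the complex II list with its assembly factors). Of 10 regulators of nuclear respiratory genes 0 passed by genotype, and their median was -0.02, with 4 higher and 6 lower. Esrra, the nuclear receptor ERRalpha and a partner of Pgc1a, came nearest, with 14.43, 14.60 and 14.74 in floxed mice on HFD against 14.03, 14.26 and 14.30 in iPGC1a-/- mice. Its groups did not overlap (-0.40 ± 0.08, limma adjusted p = 0.0505), and by diet it rose (0.34 ± 0.08, adjusted p = 0.0056). By diet 2 of the 10 regulators rose, Esrra among them, and 2 fell. The log2 differences over this list ran from -0.55 to 1.63. Of all gene names 10.3% rose and 14.3% fell by diet.

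**Figure D4:**
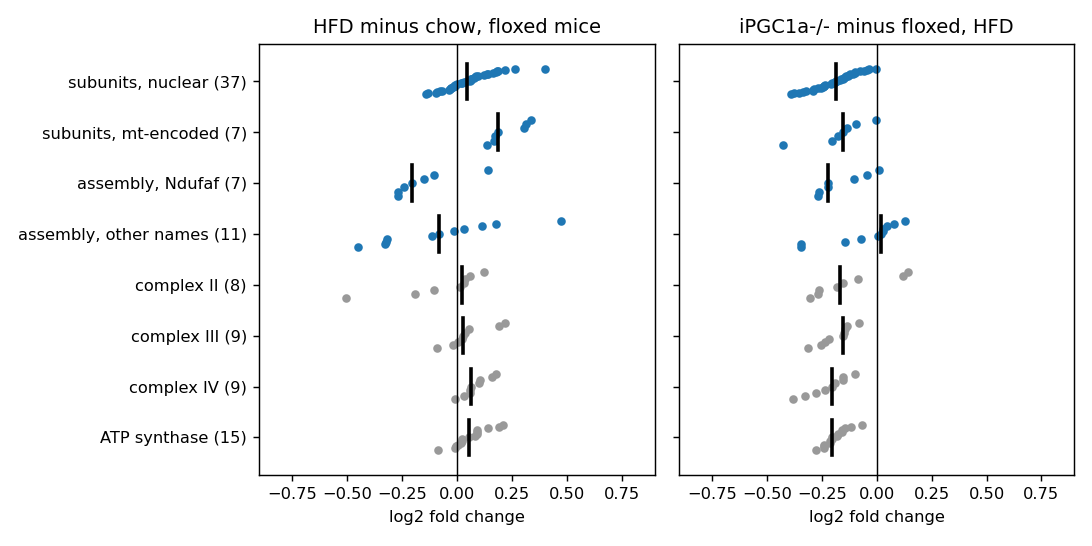
Log2 fold change of each gene (points) and list median (bar) for the complex I lists (blue) and the other respiratory complexes (grey), with the number of genes measured, by diet in floxed mice (left) and by genotype on HFD (right). The complex II list includes assembly factors (Sdhaf). On the right the medians of all lists but the assembly factors with other names (0.02) lie between -0.15 and -0.22.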

How the data were processed

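Ileal cells of 3 groups of 6 samples were hybridised to Agilent SurePrint G3 Mouse GE v2 single-colour arrays, 1 per sample. The authors scanned the slides and deposited spot intensity values from Agilent Feature Extraction 10.10.1.1, not normalized between arrays. A second deposited table gives 33095 probes on the log2 scale, which the authors had filtered, corrected for batches of labelling and of the washing bath, and normalized by qsmooth. That correction was not repeated, since the labels do not name these batches.

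Control and outlier spots (46 to 153 per array) were removed. Probes had to exceed background clearly on 5 or more of the 6 arrays in some group. Their log2 median signals were put through a rewritten qsmooth (window 0.05) and fitted with limma 3.58.1 in R 4.3.3 (lmFit, eBayes, a model of 3 groups), with Benjamini-Hochberg adjustment over 32726 probes. The scripts were tested on simulated data. A gene was called at an adjusted p of 0.05 or lower at its brightest probe. The 44 gene names all matched a RefSeq symbol. The number of arrays limits precision. A missing spot (1 in each of 2 genes) was left missing in the fit and filled with the group mean for array means. Members and lists were chosen with earlier results of these data known. The values of 1 member are not reported here, though counts and medians include it. Named genes were the other core subunits, all assembly factors, the 3 lowest p per comparison, Ndufa4 and the lists. Others were named after their values were seen. Array names for mitochondrial genes and older symbols were matched to the lists.

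Alternatives were 75th percentile scaling of the processed or median signal, normexp (offset 50) with quantile normalization, quantile normalization, the deposited log2 values, other filters, slide or replicate number as a block, array weights, a trended and robust variance, a fit to only the groups compared, averaged probes, a fold above 1.5, each array left out and, chosen after seeing the data, both HFD arrays numbered 6 left out. Plots were drawn with matplotlib 3.10.9 in Python 3.11.15.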

Additional observations from a re-analysis of the deposited data

Results flagged for a closer look

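A sample was looked at again when its distance to the nearest of the other 5 arrays, as a share of its group's range, exceeded the 95% critical value of Dixon's test, which chance does in about 1 of 20 groups. Of 66 groups examined 6 did so. The subunit mean of floxed HFD replicate 6 (13.85, the next at 13.70) stood at 0.670 of the range. Ndufb4 was highest on the same array (14.04, the next at 13.81, ratio 0.630). Ndufa2 was lowest in iPGC1a-/- HFD replicate 6 (14.43, the next at 14.58, ratio 0.855). Ndufs7 was lowest in floxed chow replicate 3 (13.89, the next at 14.14, ratio 0.670). Ndufa12 was highest in floxed chow replicate 4 (13.86, the next at 13.71, ratio 0.771). Ndufaf5 was highest in iPGC1a-/- HFD replicate 2 (8.09, the next at 7.74, ratio 0.780).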

How the results depend on the processing

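The number of subunits passing by genotype, 0, became 2 with normexp and 1 with quantile normalization, the deposited log2 values, the strict filter, a trended variance, array weights or averaged probes, and 0 to 1 with 1 array left out (1 without floxed chow replicate 4 or 6 or iPGC1a-/- replicate 5). Under these settings and with any 1 array left out, at least 35 of 37 subunits were lower (32 and 33 within slides 1 and 2). By diet, 2 subunits became 9 (processed signal, 75th percentile), 7 (median signal, 75th percentile), 5 (normexp, trended variance or averaged probes), 1 (array weights) and 0 (fold above 1.5), and 2 to 4 with 1 array left out (4 without iPGC1a-/- replicate 6). The median diet difference of the subunits moved to 0.16 and 0.14 with these scalings, where all genes had 0.05 and 0.08, and to 0.01 without floxed HFD replicate 6. Of the assembly factors, 1 passed by diet, 3 with array weights, 2 with averaged probes and 0 with quantile normalization, the deposited log2 values, either 75th percentile scaling, no filter, the slide block, only the groups compared, a trended variance, a fold above 1.5 or both HFD arrays numbered 6 left out. With 1 array left out it was 0 to 3: 0 without floxed chow replicate 1, 4 or 5, floxed HFD replicate 2, 3 or 6 or iPGC1a-/- replicate 1 or 6, 2 without floxed chow replicate 2 or floxed HFD replicate 1 or 4, and 3 without floxed chow replicate 3 or iPGC1a-/- replicate 5. From chow to iPGC1a-/- HFD, 13 subunits became 6 with either 75th percentile scaling and 0 with a fold above 1.5, and 9 to 18 with 1 array left out, and the 5 assembly factors became 0 with a fold above 1.5.

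The near-zero genotype difference of Ndufaf3 (0.01) turned to -0.014 with array weights, -0.000488 with normexp and -0.021 without both arrays numbered 6. With 1 array left out it ran from -0.035 to 0.073 and that of Ndufaf2 from -0.11 to 0.024. The cause of these changes was not tested.

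After removing group means, same-numbered samples had correlations of -0.22 to 0.35 over 18 pairs, with a median of 0.10. Differently numbered samples were not set beside them, so these values cannot decide whether the numbers pair samples. The samples were treated as unpaired. With a replicate block 2 assembly factors passed by diet in place of 1, and 2 subunits by diet and 0 by genotype.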
